A study of Sus scrofa with 10 samples.

Results

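The collagen genes described here are all genes of the deposited count tables whose symbol is COL, a number, the letter A and a number. The rule found 30 of the 22452 genes, chosen by name and by no measured value. They were followed through the 28229 cells and nuclei from tissue labelled as pig medial entorhinal cortex (MEC), a part of the medial temporal lobe that serves spatial memory. Another 9 collagen genes stood in the tables under an Ensembl ID in place of a symbol (COL4A3, COL4A6, COL6A1, COL9A1, COL9A3, COL21A1, COL22A1, COL24A1 and COL25A1), and their values are given apart from those of the 30 members. COL4A1 was not analysed here.

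Collagens are matrix proteins in which alpha chains wind into a triple helix. Fibrillar collagens such as types I, II, III, V and XI build the rope-like fibrils of connective tissue, type IV collagen builds the sheet under endothelium and epithelium, and the remaining families line fibrils, anchor cells or span the cell membrane. In the brain the parenchyma holds little fibrillar collagen, which is known chiefly from the meninges and the outer wall of vessels, while type IV collagen surrounds the capillaries.

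Fetuses came from a production farm, from Danish Landrace/Yorkshire dams mated with Duroc sires, and no treatment was compared. The whole cell libraries were 1 at embryonic day 50 (E50_1), 3 at E60 (E60_1, E60_2 and E60_3), 3 at E70 (E70_1, E70_2 and E70_3) and 1 from the adult brain (Adult_1), and there was 1 library of nuclei at E70 (E70_nc) and 1 from the adult brain (Adult_nc). The labels call these animals adult, while the study's text names a young postnatal age in several places and adult sows in others, so their age is uncertain. By the labels E50_1 pooled 3 brains, E60_3 and E70_1 pooled 2 each, and the others came from 1 brain, whereas the sample table of the study has E70_1 and E70_3 the other way round. Whole cells were freed from dissected tissue with papain and nuclei were sorted on a DNA dye, so the yield of each cell type depended on these steps. Replicate libraries existed for whole cells at E60 and E70 and for no other group.

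Levels are given as CPM, the unique molecular identifiers (UMIs) of a gene summed over the cells of a class in a library, per 1000000 UMIs of those cells. The cell classes were rebuilt by clustering, without any collagen gene or collagen pathway gene among the genes that formed the clusters, and named from marker lists. Tests between classes used sums of at least 20 cells in the 7 fetal whole cell libraries. There were 4 such sums of fibroblast-like cells (132 cells in E50_1, 24 in E60_1, 22 in E60_2 and 128 in E60_3), 3 of mural-like cells (36, 242 and 107 in E50_1, E60_1 and E60_2), 5 of endothelial-like cells (61 to 745 cells), 2 of retinal progenitor-like cells (121 in E50_1 and 51 in E70_3), 7 each of astroglia-like and interneuron-like cells, and 5 each of intermediate progenitor-like (IP-like) and excitatory-like cells. Differences are log2 fold changes ± standard error (SE) from edgeR's quasi-likelihood test with the library as a block, with p-values adjusted by Benjamini-Hochberg over 16096 genes and a call at an adjusted p under 0.05. Since a fetal library may come from 1 brain or a pool, and libraries of different stages enter the same fit, the SE covers the spread between libraries and not between named animals.

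The libraries held 2336865 UMIs (Adult_nc) to 55755512 UMIs (E50_1), with a median of 690 UMIs per cell in Adult_nc, 2616 in E70_nc and 4251 to 9403 in the whole cell libraries. E60_1 and E60_2 stood apart from the other fetal libraries. Each held a single excitatory-like cell, where the other fetal whole cell libraries held 219 to 1826. They carry the same MEC label as the other libraries, and whether their tissue was MEC was not tested. They gave 2 of the 3 sums of mural-like cells, so the contrasts below were repeated without them. A total of 449 cell barcodes occurred in more than 1 library, with 57 shared by E50_1 and E60_1. DCN and LUM, proteoglycan genes that define fibroblasts, stood at 469.6 to 1214 and 161 to 901 CPM in the fetal fibroblast-like cells, and at 0 to 6.57 and 0 to 2.81 CPM in the microglia-like cells. LUM also reached 328 to 549 CPM in the mural-like cells.

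Of the 30 members, 29 passed the filter on low counts and were tested. The exception was COL10A1, a short chain collagen of growing cartilage, with 15 UMIs in 13 of all cells. By mean CPM over the fetal libraries, 15 members were highest in fibroblast-like cells, 5 in the photoreceptor-like or pineal-like cells, 4 in retinal progenitor-like cells, 2 each in excitatory-like and mural-like cells, and 1 each in endothelial-like and microglia-like cells. The last was COL10A1, at 0.829 CPM. The 2 in mural-like cells were COL4A5 and COL18A1, and the 1 in endothelial-like cells was COL4A2. How all genes divide among these classes was not counted, and the means of the classes rest on different sets of libraries.

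**Figure D1:**
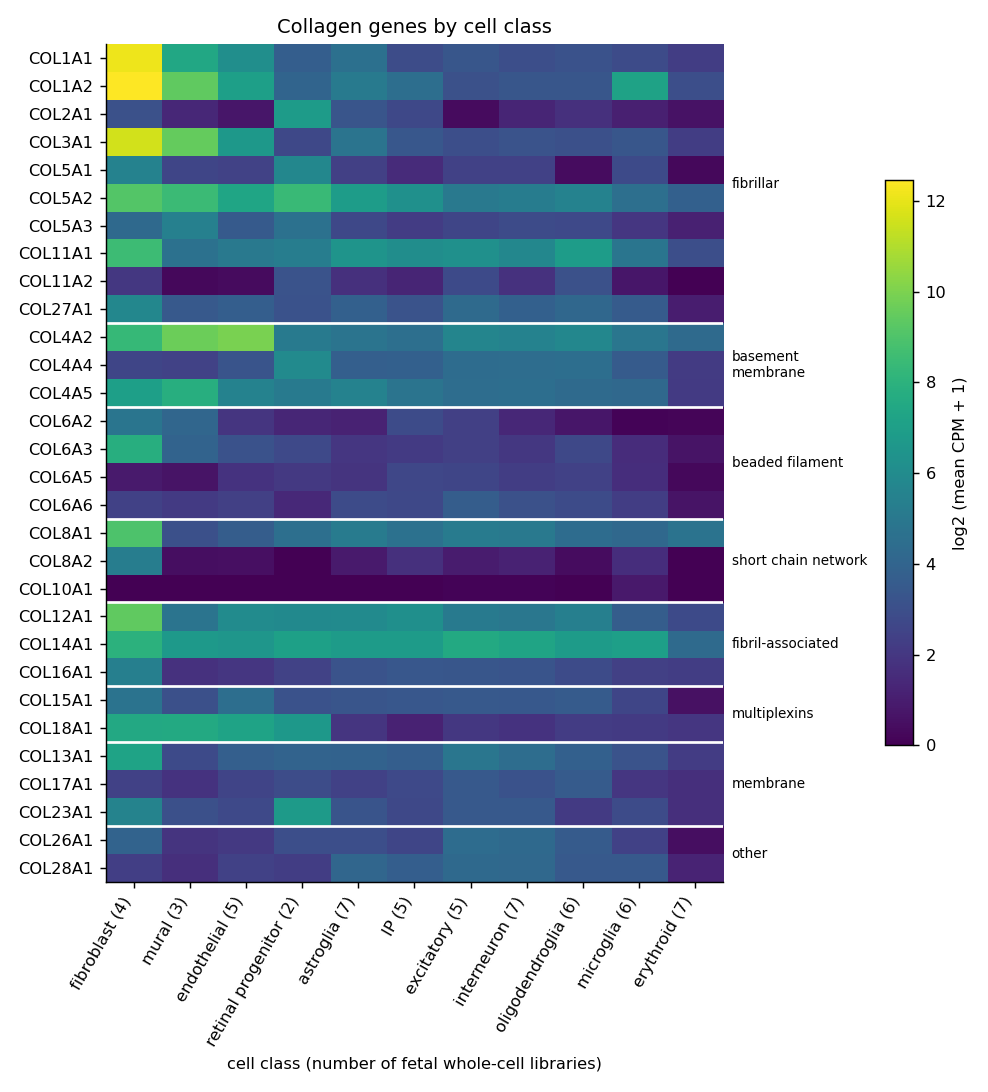
Heat map of the 30 collagen genes (rows, grouped by family) in 11 cell classes (columns, with the number of fetal whole cell libraries in brackets), coloured by log2 of the mean CPM plus 1. The fibrillar genes COL1A1, COL1A2 and COL3A1 are brightest in fibroblast-like cells, COL4A2 in endothelial-like and mural-like cells, and COL1A2 is also bright in the microglia column, where COL1A1 is dark.

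Fibroblast-like cells, the cells of the meninges and of the outer vessel wall, had most of the family at a higher level than endothelial-like cells. In this contrast 21 of 29 members were higher, against 10.5% of all genes, and 1 was lower, against 14.5% of all genes. The median log2 fold change was 2.67 over the 29 members and -0.11 over all genes. Without E60_1 and E60_2 there were 16 members higher and 1 lower. The 11 markers of astroglia moved with this contrast, at a summed 1712, 2968, 3162 and 2532 CPM in the fibroblast-like cells of E50_1, E60_1, E60_2 and E60_3 (with 0, 3, 1 and 0 of the 11 at 0) and at 386 to 820 CPM in endothelial-like cells, and their part in the collagen differences was not tested. All 10 fibrillar genes among the members (COL1A1, COL1A2, COL2A1, COL3A1, COL5A1, COL5A2, COL5A3, COL11A1, COL11A2 and COL27A1) were called higher, with a median of 3.21. Of the 9 genes listed by Ensembl ID, 5 were higher and 0 lower. These 9 include the fibrillar gene COL24A1 and the fibril-associated genes COL9A1, COL9A3, COL21A1 and COL22A1.

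Type I collagen, the main fibril of skin, bone and meninges, is made of COL1A1 and COL1A2 chains, and type III collagen, which shares those fibrils in stretchable tissue, of COL3A1 chains. COL1A1 lies at chr12:26379087-26397180 on the minus strand of Sscrofa11.1, COL1A2 at chr9:74174484-74210407 and COL3A1 at chr15:93556914-93595678, both on the plus strand. The 250 bases before the RefSeq start of COL1A1 and COL1A2 are shown because they encode the partner chains of type I collagen and were both high in fibroblast-like cells. Capitals mark, on either strand, the CCAAT box by its letters CCAAT, the TATA box by its letters TATAAA and the GC box by its letters GGGCGG. The regions are chr12:26397181-26397430 (minus strand) and chr9:74174234-74174483 (plus strand), from RefSeq on Sscrofa11.1, written 5′ to 3′ along the gene.
COL1A1: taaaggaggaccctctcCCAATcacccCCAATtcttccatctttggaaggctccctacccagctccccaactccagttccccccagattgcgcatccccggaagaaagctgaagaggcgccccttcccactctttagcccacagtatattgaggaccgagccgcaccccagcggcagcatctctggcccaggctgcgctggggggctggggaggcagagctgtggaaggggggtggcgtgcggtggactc
COL1A2: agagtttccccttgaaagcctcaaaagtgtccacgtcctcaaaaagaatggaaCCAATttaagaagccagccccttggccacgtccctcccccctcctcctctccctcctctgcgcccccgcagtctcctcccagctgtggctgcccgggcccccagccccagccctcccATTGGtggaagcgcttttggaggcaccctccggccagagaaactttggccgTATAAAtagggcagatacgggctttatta
The COL1A1 window held 2 CCAAT matches, and the COL1A2 window 2 CCAAT matches and 1 TATAAA match. No motif overlapped another. Of 19544 RefSeq promoter windows of this length, 31.9% held CCAAT, 9.76% TATAAA and 45.9% GGGCGG, and of the 29 collagen windows found 13, 6 and 14 did.

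COL1A1 stood at 10943, 2845, 1652 and 2698 CPM in the fibroblast-like cells of E50_1, E60_1, E60_2 and E60_3. In endothelial-like cells it stood at 95.5, 4.04, 9.38, 175 and 70.04 CPM in E50_1, E60_1, E60_2, E60_3 and E70_3. The lowest fibroblast-like library lay above the highest endothelial-like one, and E50_1 was the highest of the fibroblast-like libraries. The log2 difference was 5.70 ± 0.62 (edgeR adjusted p = 8.95e-11) and 4.81 without E60_1 and E60_2. COL1A1 UMIs were found in 98.4% of 311 fetal fibroblast-like cells, 9.89% of 1587 endothelial-like and 1.79% of 1957 microglia-like cells. After each cell was thinned to 1000 UMIs these shares were 88.1%, 1.39% and 0.204%.

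COL1A2 stood at 11309.5, 3715, 3543 and 3893 CPM in the fibroblast-like cells of the same 4 libraries and at 32.2 to 262 CPM in endothelial-like cells, a difference of 4.75 ± 0.54 (edgeR adjusted p = 2.8e-10). COL3A1 stood at 3430.1, 3562, 2760.3 and 2556 CPM and at 41.8 to 186 CPM, a difference of 3.80 ± 0.72 (edgeR adjusted p = 3.17e-05). For both genes the ranges of the classes did not overlap. E50_1 was again the highest for COL1A2, and for COL3A1 the 4 fibroblast-like libraries lay within 1.4 times of each other.

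The minor fibrillar collagens, which join type I and type II fibrils and set their width, followed the same direction. COL11A1 was at 394, 399, 413 and 254 CPM in fibroblast-like cells and 23.3 to 41.8 CPM in endothelial-like cells (3.25 ± 0.35, edgeR adjusted p = 6.73e-11). COL5A2, which lies next to COL3A1 with 16177 bases between the annotated genes, was at 475, 553, 527 and 642 CPM against 125 to 216 CPM (1.57 ± 0.31, edgeR adjusted p = 6.65e-05). The libraries of the classes did not overlap for either gene. COL5A1 was higher by 3.11 ± 0.41 and COL27A1 by 2.31 ± 0.34, while the calls of COL2A1, COL5A3 and COL11A2 rested on low levels, at most 10.9, 40.1 and 5.43 CPM in a fibroblast-like library. Those of COL2A1 and COL5A3 were lost without E60_1 and E60_2 (edgeR adjusted p = 0.081 and 0.169), and that of COL5A3 also without E50_1 (0.0502), E60_2 (0.0779) or E60_3 (0.12).

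The short chain collagens COL8A1 and COL8A2, which form the type VIII lattice of vessel walls and of the cornea, were much higher in fibroblast-like cells, with the largest difference of the family in COL8A2 and the third largest in COL8A1. COL8A1, at chr13:159216138-159374718 on the minus strand, stood at 1027, 307, 391 and 265 CPM in the 4 fibroblast-like libraries and at 3.27 to 22.7 CPM in endothelial-like cells (5.69 ± 0.45, edgeR adjusted p = 1.96e-15). COL8A2 stood at 107, 10.2, 16.3 and 18.2 CPM and at 0 to 0.970 CPM (6.09 ± 0.59, edgeR adjusted p = 7.69e-12). COL8A2 was thus mainly an E50_1 signal among the fibroblast-like libraries, and its values in E60_1 and E60_2 rest on 1 and 3 UMIs. Only 54.98% of fetal fibroblast-like cells had a COL8A1 UMI, against 99.7% for COL1A2.

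**Figure D2:**
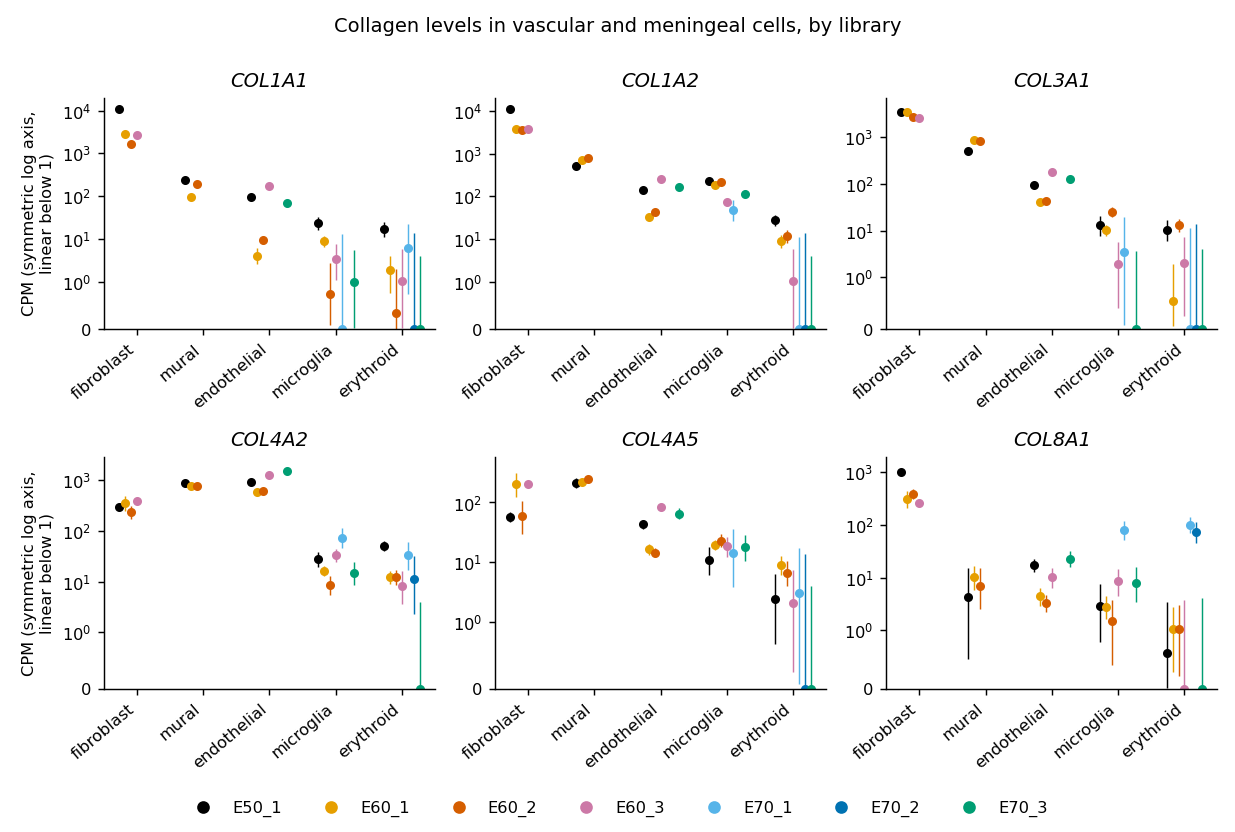
Levels of 6 collagen genes in CPM (vertical axis, symmetric log scale, linear below 1) in fibroblast-like, mural-like and endothelial-like cells and in the microglia-like and erythroid-like cells, 1 point per fetal library with its exact 95% Poisson interval. COL1A1, COL1A2, COL3A1 and COL8A1 are highest in fibroblast-like cells, COL4A2 in endothelial-like and mural-like cells, and COL1A2 in microglia-like cells lies among the endothelial-like libraries.

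The beaded filament collagens build type VI microfibrils, which sit between basement membranes and fibrils. COL6A3 was at 107, 429.9, 130.4 and 217 CPM in fibroblast-like cells against 1.23 to 25.2 CPM in endothelial-like cells (5.02 ± 0.45, edgeR adjusted p = 1.56e-13), and COL6A2 was at 50.7, 20.5, 16.3 and 22.5 against 0.527 to 4.36 CPM (3.30 ± 0.45, edgeR adjusted p = 4.53e-08). COL6A1, listed by Ensembl ID, had a difference of 2.46 ± 0.53. All 3 chains that assemble into type VI collagen were therefore called higher, whereas COL6A5 and COL6A6, which can stand in for COL6A3, were at or below 9.12 CPM in every fibroblast-like library and were not called.

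Fibril-associated collagens coat fibrils and link them to other matrix. Those among the 30 members were higher in fibroblast-like cells in 3 of 3 cases. COL12A1 stood at 997, 502, 293 and 970.3 CPM against 18.8 to 107 CPM in endothelial-like cells (3.46 ± 0.44, edgeR adjusted p = 6.99e-09). COL14A1 stood at 354, 102, 304 and 277 against 69.5 to 133 CPM (1.53 ± 0.22, edgeR adjusted p = 1.11e-07). For COL14A1 the classes overlapped, with E60_1 low among the fibroblast-like libraries. COL16A1 differed by 4.04 ± 0.50.

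Membrane collagens carry their triple helix on the cell surface. COL13A1, found at cell adhesions and at the neuromuscular junction, stood at 26.8, 307, 5.43 and 262 CPM in the fibroblast-like cells of E50_1, E60_1, E60_2 and E60_3. E60_1 and E60_3 were thus high, while E50_1 and E60_2 lay inside the range of the endothelial-like cells, which spanned 1.58 to 43.1 CPM. Its difference was 3.48 ± 0.47 (edgeR adjusted p = 2.09e-08), and that of COL23A1 was 2.67 ± 0.47. COL17A1, the hemidesmosome collagen of skin, stood at 0 to 6.41 CPM in fibroblast-like cells and was not called. COL26A1, a secreted collagen known from testis and ovary, was called higher (1.55 ± 0.50), but not without E60_2 (edgeR adjusted p = 0.0673), without E60_3 (0.077) or without E60_1 and E60_2 (0.194).

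In type IV collagen, the network of the basement membrane, COL4A2 ran in the opposite direction and COL4A5 did not. COL4A2, whose chains pair with those of COL4A1 in every basement membrane, lies at chr11:76996885-77161617 on the plus strand. It stood at 937, 593, 606, 1292 and 1515 CPM in the endothelial-like cells of E50_1, E60_1, E60_2, E60_3 and E70_3, at 875, 786 and 764 CPM in the mural-like cells of E50_1, E60_1 and E60_2, and at 301, 358, 234 and 396 CPM in the fibroblast-like cells of E50_1, E60_1, E60_2 and E60_3. The fibroblast-like libraries all lay below the endothelial-like and mural-like ones, which overlapped. COL4A2 was lower in fibroblast-like than in endothelial-like cells (-1.82 ± 0.32, edgeR adjusted p = 8.58e-06), and it was the 1 member called lower there. Between mural-like and endothelial-like cells it differed by -0.14 ± 0.33 (edgeR adjusted p = 0.859). COL4A5 was higher in fibroblast-like than in endothelial-like cells (1.32 ± 0.37, edgeR adjusted p = 0.00545). This call was lost without E60_1 (0.0513) and without E60_1 and E60_2 together (0.91, adjusted p = 0.1043). The type IV genes therefore had 1 member higher and 1 lower of 3 tested.

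Mural-like cells, the pericytes and smooth muscle cells of vessels, had 6 of 29 members higher than endothelial-like cells, against 4.97% of all genes, and 0 lower, against 8.37% of all genes. The median was 0.05 over the members and -0.16 over all genes. Of the lower members 0 had an unadjusted p under 0.05 in edgeR, and DESeq2 called 4 higher and 0 lower. Leaving out E60_1 or E60_2 left 3 members higher, and leaving out both left 2. Markers of other classes moved with this contrast. The 16 fibroblast markers summed to 1327, 1241 and 1043 CPM in the mural-like cells of E50_1, E60_1 and E60_2 (with 4, 3 and 4 at 0) and to 122 to 284 CPM in the endothelial-like cells, the 11 astroglia markers to 1126 to 3107 CPM against 386 to 820 CPM, and the 11 microglia markers to 173 to 1000 CPM against 66.5 to 173 CPM. Their part in the collagen differences was not tested. The 6 were COL6A2 (2.86 ± 0.49, edgeR adjusted p = 1.9e-05), COL5A3 (2.73 ± 0.39, 6.46e-07), COL4A5 (2.48 ± 0.39, 3.51e-06), COL1A2 (1.99 ± 0.56, 0.00985), COL6A3 (1.73 ± 0.55, 0.0254) and COL1A1 (1.87 ± 0.65, 0.0449).

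COL4A5, an X-linked type IV chain at chrX:88958837-89183306 on the plus strand, stood at 211, 223 and 245 CPM in the mural-like libraries and at 43.0, 16.7, 14.5, 84.4 and 65.2 CPM in the endothelial-like libraries. COL5A3, a minor fibrillar chain, stood at 44.4, 37.2 and 43.9 CPM against 2.11 to 21.8 CPM, and COL6A2 at 19.0, 16.0 and 13.9 CPM against 0.527 to 4.36 CPM. In these 3 genes the libraries of the classes did not overlap, and the mural-like libraries lay close together. COL4A6, a type IV chain gene near COL4A5 on the X chromosome and listed by Ensembl ID, was also higher, by 2.29 ± 0.46. So was COL6A1, the third chain of type VI collagen (edgeR adjusted p = 0.00486).

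The type I genes were less even. COL1A1 stood at 235, 94.3 and 192 CPM in mural-like cells, which overlapped the endothelial-like range of 4.04 to 175 CPM. COL1A2 stood at 519.7, 720.4 and 805 CPM and did not overlap. Without E60_1 and E60_2, which left the 36 mural-like cells of E50_1, the difference of COL1A1 was -0.52 (edgeR adjusted p = 0.798) and that of COL1A2 was -0.13 (0.966), and only COL4A5 (2.19) and COL5A3 (2.29) of the 6 kept their calls. The lone mural-like sum is there assumed to vary like the other classes. For COL1A1 and COL1A2 the fitted sign goes against the levels, since the mural-like cells of E50_1 lay above the endothelial-like cells of E50_1, E60_3 and E70_3 for both genes. Leaving out E60_1 or E60_2 alone also ended the calls of COL1A1 (edgeR adjusted p = 0.0578 and 0.833), COL1A2 (0.213 and 0.228) and COL6A3 (0.181 and 0.211). COL6A3 also lost its call without E50_1 (edgeR adjusted p = 0.0517), with cells thinned to 1000 UMIs (0.1202) and without batch correction (0.1135). In DESeq2 COL1A1 (adjusted p = 0.1023) and COL6A3 (0.056) were not called. COL3A1 stood at 513, 867 and 827 CPM in mural-like cells, all above the endothelial-like libraries, but its difference was not called (1.75 ± 0.75, edgeR adjusted p = 0.123).

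Fibroblast-like and mural-like cells were also compared directly. In fibroblast-like cells 15 of 29 members were higher, against 6.67% of all genes, and 2 were lower, against 6.9% of all genes, with a median of 2.05 over the members and 0.03 over all genes. Without E60_1 and E60_2 there were 13 higher and 0 lower. The 14 endothelial markers summed to 222 to 383 CPM in the fibroblast-like sums (with 1 to 6 at 0) and to 1286 to 1513 CPM in the mural-like sums (with 0 to 1 at 0), and their part in the collagen differences was not tested. COL3A1 was among the 15 (2.05 ± 0.70, edgeR adjusted p = 0.0407), but not without E50_1 (0.226), E60_2 (0.112) or E60_3 (0.0551). The largest differences were those of COL8A2 (6.07 ± 0.95, edgeR adjusted p = 3.65e-06), COL8A1 (5.73 ± 0.62, 2.52e-10) and COL12A1 (4.45 ± 0.61, 1.13e-07). COL8A1 was at 4.23, 10.3 and 6.94 CPM and COL12A1 at 29.6, 37.2 and 13.9 CPM in the mural-like cells of E50_1, E60_1 and E60_2, far below the fibroblast-like libraries. COL8A2 had 1 UMI in E60_2 and none in the other mural-like libraries, so its fold depends on the fit.

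The 2 members lower in fibroblast-like than in mural-like cells were COL4A2 (-1.68 ± 0.35, edgeR adjusted p = 0.000298) and COL5A3 (-1.56 ± 0.45, 0.0131). Neither was called without E60_1 and E60_2, where the differences were -1.39 (adjusted p = 0.156) and -1.42 (0.196), and COL5A3 was also not called without E50_1 (0.0933) or E60_2 (0.106). COL5A2 differed by 0.70 ± 0.37 and COL6A2 by 0.43 ± 0.53 between these classes, and neither was called.

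**Figure D3:**
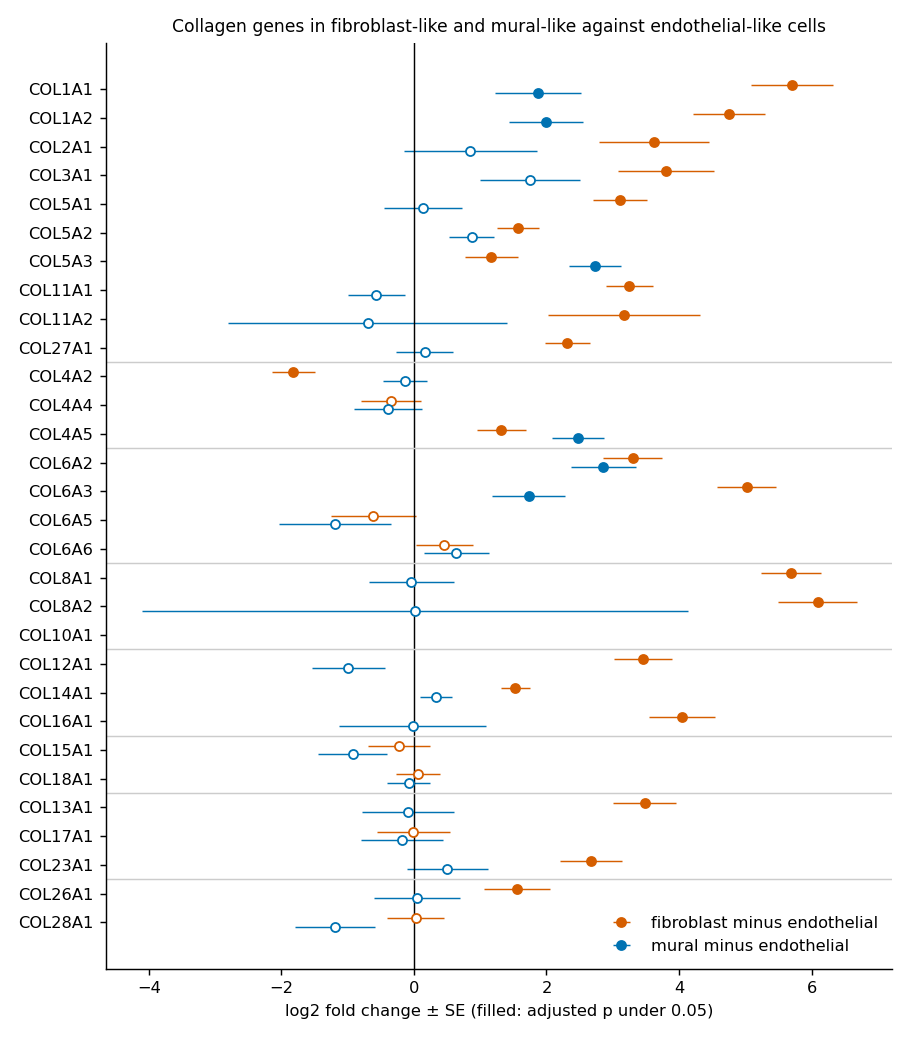
Log2 fold changes ± SE (horizontal axis) of the 30 collagen genes (rows, grouped by family) in fibroblast-like minus endothelial-like cells (orange) and mural-like minus endothelial-like cells (blue), with filled points for an edgeR adjusted p under 0.05 and no point for COL10A1, which was not tested. The 10 fibrillar genes are all filled and to the right in orange, COL4A2 is the 1 orange point filled to the left, and COL18A1 lies at 0 in both.

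The multiplexins COL15A1 and COL18A1 carry heparan or chondroitin sulfate chains and sit in the outer layer of basement membranes, and the end of the COL18A1 chain is released as endostatin. COL18A1, at chr13:207907835-207984082 on the plus strand, was shared by the vascular and meningeal classes. It stood at 176, 194, 141 and 228 CPM in the 4 fibroblast-like libraries, 319, 128 and 116 CPM in the 3 mural-like libraries and 249, 87.2, 86.8, 175 and 148 CPM in the 5 endothelial-like libraries. These ranges overlapped, and COL18A1 differed by 0.06 ± 0.33 between fibroblast-like and endothelial-like cells and by -0.08 ± 0.33 between mural-like and endothelial-like cells, both smaller than their SE. In microglia-like cells it was at 0 to 7.30 CPM, below all of these libraries. COL15A1 was at 8.16 to 40.9 CPM in fibroblast-like cells and 5.78 to 61.6 CPM in endothelial-like cells and was called above the microglia-like level in both (2.16 ± 0.52 and 2.40 ± 0.39).

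The level in microglia-like cells, which are not known as a source of collagen and share the free RNA of their library, was used as a background for all classes. Against it 23 of 29 members were higher in fibroblast-like cells, against 14.6% of all genes, 10 in mural-like cells (10.7% of all genes) and 12 in endothelial-like cells (17.6% of all genes). In neural classes the counts were 8 in astroglia-like cells (28.1% of all genes), 4 in IP-like cells (21.7%), 7 in excitatory-like cells (29.1%), 7 in interneuron-like cells (30.5%) and 10 in retinal progenitor-like cells (11.9%). The share of members thus exceeded that of all genes in the vascular, meningeal and retinal progenitor-like classes. It did not exceed it in astroglia-like, IP-like, excitatory-like and interneuron-like cells. The differences between these shares were not tested. In endothelial-like cells and in these neural classes the counts of members fell under some alternatives, which are given with the dependence on processing. With erythroid-like cells as the background, the counts were 20 in fibroblast-like cells (13.3% of all genes), 11 in mural-like (11.3%), 9 in endothelial-like (24%) and 8 in retinal progenitor-like cells (5.04%), and 1 in astroglia-like (15%), 0 in IP-like (10.6%), 2 in excitatory-like (17.5%) and 2 in interneuron-like cells (16.6%).

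Astroglia-like cells, named from markers of radial glia and astrocytes, were compared with excitatory-like neurons. In astroglia-like cells 7 of 29 members were higher, against 15.4% of all genes, and 5 were lower, against 15.6% of all genes, and the medians were 0.10 over the members and -0.08 over all genes. Without E60_1 and E60_2 there were 8 higher and 4 lower, and without E60_3 or E70_3 there were 4 higher. The 16 fibroblast markers moved with this contrast, at a summed 349, 525, 536, 388 and 506 CPM in the astroglia-like cells of E50_1, E60_3, E70_1, E70_2 and E70_3 (with 3, 3, 5, 7 and 4 at 0) and 137, 103, 225, 184 and 107 CPM in the excitatory-like cells of these libraries, and their part in the collagen differences was not tested. The higher members were COL2A1 (3.46 ± 0.58, edgeR adjusted p = 3.32e-06), COL1A2 (2.46 ± 0.52, 0.000138), COL1A1 (1.87 ± 0.56, 0.00752), COL3A1 (1.82 ± 0.65, 0.0262), COL5A2 (1.66 ± 0.30, 1e-05), COL4A5 (1.57 ± 0.33, 0.000173) and COL12A1 (1.10 ± 0.39, 0.0272).

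COL5A2 was at 83.0, 176, 154, 123, 94.6, 79.7 and 109 CPM in the astroglia-like cells of E50_1, E60_1, E60_2, E60_3, E70_1, E70_2 and E70_3. In excitatory-like cells it was at 15.7, 45.9, 27.2, 23.2 and 46.7 CPM in E50_1, E60_3, E70_1, E70_2 and E70_3. Every astroglia-like library lay above every excitatory-like one, and IP-like cells, with 46.7 to 128 CPM, overlapped the astroglia-like range. COL5A2 was also above the microglia-like level in astroglia-like (2.36 ± 0.30) and IP-like cells (1.81 ± 0.33). COL4A5 was at 25.9 to 80.6 CPM in astroglia-like and 4.34 to 40.1 CPM in excitatory-like cells, which overlapped.

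COL1A1, COL1A2 and COL3A1 were low in both neural classes next to the fibroblast-like cells. COL1A1 spanned 3.33 to 60.9 CPM in astroglia-like, 2.91 to 22.7 CPM in excitatory-like and 0 to 16.7 CPM in erythroid-like cells, and COL1A2 spanned 7.01 to 61.3, 1.801 to 26.0 and 0 to 27.8 CPM in the same classes. E50_1 was the highest library in the excitatory-like and erythroid-like cells for both genes, as it was in fibroblast-like cells. A COL1A1 UMI was found in 7.02% of astroglia-like, 8.84% of excitatory-like and 1.85% of erythroid-like cells, or 1.37%, 0.987% and 0.406% at 1000 UMIs per cell. The calls of COL1A1 and COL3A1 were lost without E60_3 (edgeR adjusted p = 0.0969 and 0.249) and without E70_3 (0.0675 and 0.0638), that of COL3A1 also without E60_2 (0.057), with doublets removed (0.114) and in DESeq2 (0.128), and that of COL12A1 without E50_1, E60_1, E60_3 or E70_3 (0.113, 0.0515, 0.167 and 0.0741). The part of free RNA in these differences was not tested.

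COL2A1, the type II collagen chain of cartilage, vitreous and notochord, lies at chr5:78350131-78380893 on the minus strand. Its promoter window is shown because COL2A1 was highest in retinal progenitor-like cells. The region is chr5:78380894-78381143, minus strand, from RefSeq on Sscrofa11.1, with the same motifs in capitals, of which it held 1 CCAAT match and 2 GGGCGG matches.
COL2A1: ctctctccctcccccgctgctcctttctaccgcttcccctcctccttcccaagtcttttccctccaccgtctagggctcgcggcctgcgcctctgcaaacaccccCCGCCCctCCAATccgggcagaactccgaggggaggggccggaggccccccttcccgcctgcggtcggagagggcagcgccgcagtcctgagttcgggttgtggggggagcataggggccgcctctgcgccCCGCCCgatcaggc
COL2A1 stood at 16.0, 23.5, 16.7, 4.32, 0, 0 and 1.05 CPM in the astroglia-like cells of E50_1, E60_1, E60_2, E60_3, E70_1, E70_2 and E70_3. It was at 0 to 0.412 CPM in the 5 excitatory-like libraries. The 3 highest astroglia-like libraries were E60_1, E60_2 and E50_1, while E70_1 and E70_2, with 21 and 37 astroglia-like cells, had no COL2A1 UMI, which allows up to 10.5 and 6.47 CPM. The difference was 3.61 without E60_1 and E60_2.

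The 5 members lower in astroglia-like than in excitatory-like cells were COL26A1 (-1.61 ± 0.32, edgeR adjusted p = 5.04e-05), COL6A2 (-1.51 ± 0.42, 0.00404), COL13A1 (-0.97 ± 0.38, 0.0441), COL4A2 (-0.85 ± 0.27, 0.0133) and COL14A1 (-0.55 ± 0.19, 0.0183). COL26A1 stood at 13.4, 13.6, 28.1, 28.4 and 16.3 CPM in the excitatory-like cells of E50_1, E60_3, E70_1, E70_2 and E70_3. It stood at 2.11 to 17.2 CPM in astroglia-like, 8.996 to 37.0 CPM in interneuron-like and 0 to 17.6 CPM in microglia-like cells, so the astroglia-like libraries E70_1 and E70_2 overlapped the excitatory-like range. COL26A1 was higher than in microglia-like cells in excitatory-like (2.31 ± 0.40, edgeR adjusted p = 2.56e-06) and interneuron-like cells (2.42 ± 0.39, 3.9e-07).

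The remaining 4 ranged widely in level in neurons. COL6A2 was at 2.70 to 4.90 CPM in excitatory-like cells and 0 to 4.31 CPM in astroglia-like cells, COL13A1 at 13.1 to 50.8 against 2.92 to 38.5 CPM, and COL4A2 at 36.1 to 58.8 against 9.58 to 47.5 CPM. The libraries of the classes overlapped for each of them. The calls of COL13A1 (edgeR adjusted p = 0.222 without E50_1, 0.0597 without E70_2 and 0.0997 without E70_3) and COL14A1 (0.06 without E60_3) rested on single libraries, and COL4A2 was not called without E60_1 and E60_2 (0.077). COL14A1 was at 63.8 to 318 CPM in excitatory-like, 49.0 to 238 CPM in astroglia-like and 64.7 to 274 CPM in microglia-like cells, so that these classes overlapped throughout, and both astroglia-like (-0.63 ± 0.18) and IP-like cells (-0.71 ± 0.21) were called lower than microglia-like cells.

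Among progenitors and neurons, COL11A1 and COL12A1 were called above the microglia-like level in several classes. COL11A1 was higher by 1.82 ± 0.32 in astroglia-like, 1.94 ± 0.36 in IP-like, 1.10 ± 0.35 in excitatory-like and 0.85 ± 0.33 in interneuron-like cells. COL12A1 was higher by 2.03 ± 0.42, 2.23 ± 0.47 and 1.12 ± 0.43 in astroglia-like, IP-like and interneuron-like cells. COL11A1 was also found in oligodendroglia-like cells, at 132, 71.6, 88.6, 103 and 126 CPM in E50_1, E60_1, E60_2, E60_3 and E70_3, against 1.00 to 14.2 CPM in the microglia-like cells of the same libraries. These ranges did not overlap. With the smaller sums of E70_1 and E70_2 they did, at 110.4 and 177 CPM in oligodendroglia-like and 127 and 64.1 CPM in microglia-like cells, and in E70_1 the microglia-like level was the higher one. COL6A2 was above the microglia-like level in IP-like (3.54 ± 0.73) and excitatory-like cells (3.09 ± 0.68), and COL6A6 (0.89 ± 0.32) and COL17A1 (1.04 ± 0.39) in excitatory-like cells.

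COL25A1, the membrane collagen of neurons also known as collagenous Alzheimer amyloid plaque component, was listed by Ensembl ID. It was highest in interneuron-like cells, at 132 ± 63.8 CPM (SD, n = 7), with 52.9, 77.8, 76.8, 165, 168, 153 and 229 CPM in E50_1, E60_1, E60_2, E60_3, E70_1, E70_2 and E70_3. Its difference from microglia-like cells was 2.39 ± 0.39 (edgeR adjusted p = 5.41e-07) there and 1.18 ± 0.41 (0.0134) in excitatory-like cells. COL9A1, a fibril-associated chain of cartilage and eye also listed by ID, was above the microglia-like level in astroglia-like (2.92 ± 0.46) and IP-like cells (3.32 ± 0.50).

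The retinal progenitor-like cells were named from eye field genes. SIX6 stood at 121 and 240.2 CPM, SIX3 at 85.7 and 160.1 CPM, and RAX at 34.9 and 10.4 CPM in E50_1 and E70_3, while SIX6 was at or below 0.364 CPM in all fetal astroglia-like sums. ATOH7, a gene of retinal ganglion cell precursors, was at 0 in both. SFRP2, another gene of the list, stood at 813 CPM in the fibroblast-like cells of E50_1 and at 35.1 to 110 CPM in the fetal astroglia-like sums. It was at 160 and 393 CPM in the retinal progenitor-like cells of E50_1 and E70_3. The MEC is not known to hold retinal tissue, and how these cells came into the libraries was not tested. Since they came from 2 libraries of different stages, stage and library cannot be told apart in them.

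Against astroglia-like cells, 7 of 29 members were higher in retinal progenitor-like cells, against 4.29% of all genes, and 0 were lower, against 7.26% of all genes. The median was 0.34 over the members and -0.19 over all genes. In edgeR 2 members, COL1A2 and COL27A1, were lower at an unadjusted p under 0.05, and DESeq2 called 7 higher and 0 lower. The counts were the same without E60_1 and E60_2. The 13 mural markers summed to 808 and 108 CPM in the retinal progenitor-like cells of E50_1 and E70_3 (with 2 and 6 at 0), against 119 to 207 CPM in fetal astroglia-like cells, and the 14 endothelial markers to 140.4 and 463 CPM (2 and 3 at 0), against 42.7 to 214 CPM. The 7 markers of retinal progenitors summed to 581 and 832 CPM. In E50_1 this list also summed to 818 CPM in fibroblast-like cells and to 884 CPM in photoreceptor-like or pineal-like cells. The part of the vascular markers in the collagen differences was not tested. The largest difference was that of COL18A1 (4.53 ± 0.45, edgeR adjusted p = 9.72e-11), which stood at 159 and 38.3 CPM in E50_1 and E70_3 and at 0 to 6.47 CPM in astroglia-like cells. COL2A1 followed (4.40 ± 0.57, edgeR adjusted p = 1e-07), with 105 and 122 CPM against 0 to 23.5 CPM. Both retinal progenitor-like libraries lay above all 7 astroglia-like ones for these genes, and a COL2A1 UMI was found in 43.0% of 179 retinal progenitor-like cells and 6.88% of 4319 astroglia-like cells.

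COL23A1, a membrane collagen, stood at 13.9 and 205 CPM in E50_1 and E70_3, against 0.999 to 17.2 CPM in astroglia-like cells (3.60 ± 0.51, edgeR adjusted p = 8.12e-07). The E50_1 value lay inside the astroglia-like range and E70_3 far above it, and without E70_3 the difference was 2.19 (adjusted p = 0.0663). A fit that leaves out E50_1 or E70_3 holds 1 retinal progenitor-like sum, which is assumed to vary like the other classes. COL5A2 stood at 162 and 539.6 CPM (1.55 ± 0.38, 0.00357), with E50_1 inside the astroglia-like range, and at 0.96 without E70_3 (0.251). The other type V chains stood above all astroglia-like libraries, with 44.8 and 62.7 CPM for COL5A1 against 0.777 to 7.01 CPM (3.18 ± 0.47, 2.65e-06) and 13.9 and 34.8 CPM for COL5A3 against 1.67 to 10.5 CPM (2.02 ± 0.51, 0.00583). The COL5A3 difference was not called without E50_1 (edgeR adjusted p = 0.165).

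The type IV chains COL4A3 and COL4A4, which join COL4A5 in the basement membranes of the kidney glomerulus and the eye, lie head to head with 663 bases of overlap between their annotated spans on chromosome 15. COL4A4 stood at 47.8 and 76.6 CPM in retinal progenitor-like cells and 3.12 to 31.5 CPM in astroglia-like cells (2.65 ± 0.38, edgeR adjusted p = 1.25e-06), and COL4A3, listed by Ensembl ID, at 68.7 and 125 against 3.11 to 49.6 CPM (2.61 ± 0.40, 4.87e-06). Both chains were above every astroglia-like library in both retinal progenitor-like libraries. COL4A5 itself did not differ in the test (-0.53 ± 0.55, 0.608), and COL4A2 stood at 41.8 and 24.4 CPM, inside the astroglia-like range. In photoreceptor-like or pineal-like cells, of which E50_1, E70_1 and E70_3 held 27, 26 and 48, COL4A3 was at 27.5, 57.0 and 117 CPM and COL4A4 at 27.5, 29.4 and 48.2 CPM.

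**Figure D4:**
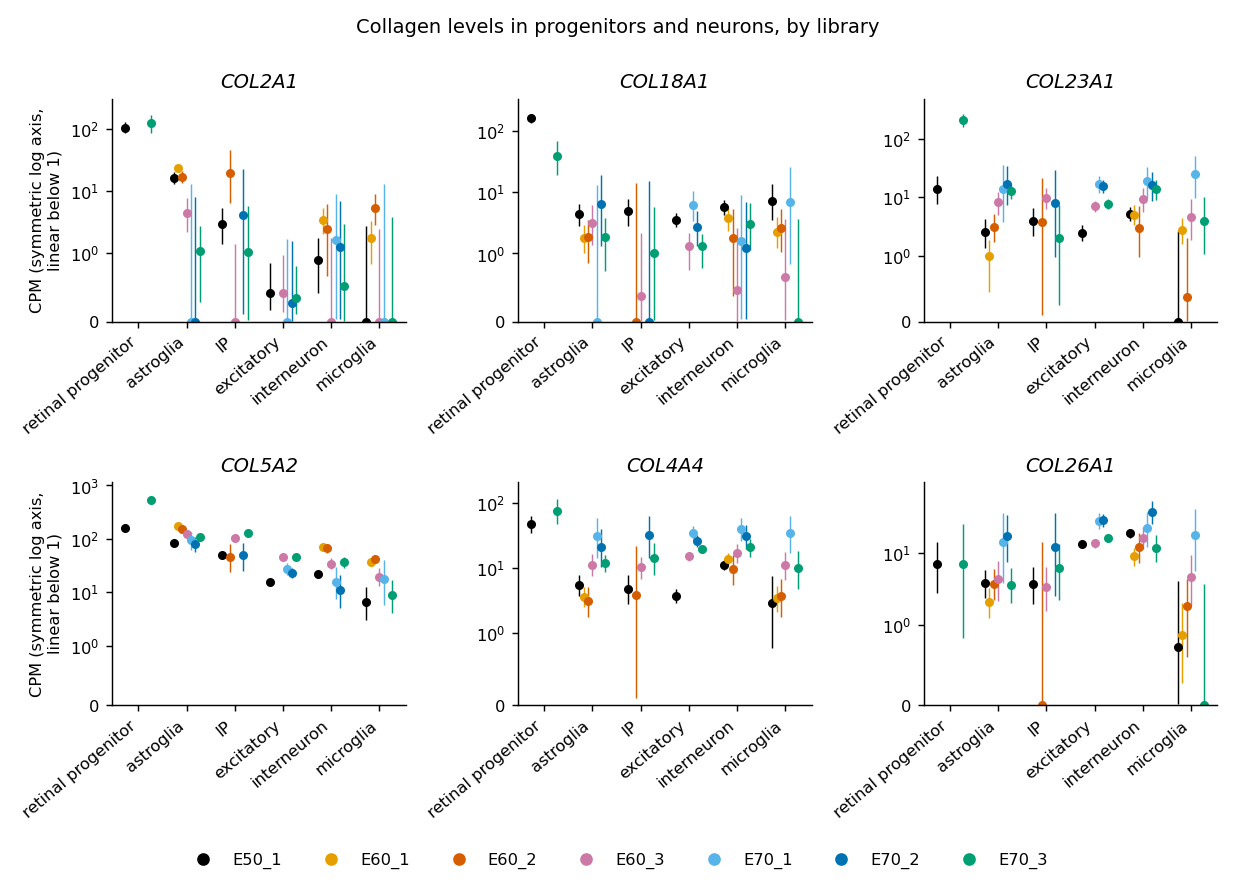
Levels of 6 collagen genes in CPM (vertical axis, symmetric log scale, linear below 1) in retinal progenitor-like, astroglia-like, IP-like, excitatory-like, interneuron-like and microglia-like cells, 1 point per fetal library with its exact 95% Poisson interval. COL2A1, COL18A1 and COL4A4 are above the astroglia-like points in both retinal progenitor-like libraries, COL23A1 is so in E70_3 and not in E50_1, and COL5A2 falls from astroglia-like to excitatory-like cells.

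COL1A2 went its own way in microglia-like cells. Its level there was 229, 184, 219, 74.0, 49.2 and 117 CPM in E50_1, E60_1, E60_2, E60_3, E70_1 and E70_3, whereas COL1A1, its partner chain, stood at 23.3, 8.77, 0.745, 3.30, 0 and 1.00 CPM. There were 9.81 to 294 COL1A2 UMIs per COL1A1 UMI in the 5 of these libraries with a COL1A1 UMI in microglia-like cells, against 1.03 to 2.14 in the fetal fibroblast-like cells. The highest ratios, 294 and 116, rest on 2 and 1 COL1A1 UMIs. E60_1 and E60_2 also had ratios above this fibroblast-like range in mural-like (7.64 and 4.19) and endothelial-like cells (7.96 and 4.49). In astroglia-like cells E60_2 lay above it (12.6) and E60_1 inside it (1.84). A COL1A2 UMI was found in 47.8% of 1957 microglia-like cells, 8.92% of 5168 excitatory-like cells and 4.06% of 1726 erythroid-like cells. At 1000 UMIs per cell the shares were 15.3%, 1.16% and 1.04%.

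E60_1 and E60_2 gave 1119 and 468 of the microglia-like cells, 779 and 516 of the erythroid-like cells and 1 excitatory-like cell each, so the erythroid-like share comes mostly from the same libraries as the microglia-like one and the excitatory-like share does not. What gave the COL1A2 UMIs of microglia-like cells was not tested. COL1A2 was lower than in microglia-like cells in astroglia-like (-2.17 ± 0.44, edgeR adjusted p = 3.65e-05), IP-like (-3.38 ± 0.58, 2.99e-06), interneuron-like (-4.26 ± 0.49, 9.26e-11), excitatory-like (-4.64 ± 0.56, 4.23e-10) and retinal progenitor-like cells (-4.34 ± 0.93, 0.000265). The choroid plexus-like or ependyma-like cells, nearly all from E60_1, also held more COL1A2 than COL1A1 UMIs, with a COL1A2 UMI in 34.0% and a COL1A1 UMI in 1.55% of 906 cells. In the adult microglia-like cells COL1A2 was at 27.0 CPM in whole cells and 29.2 CPM in nuclei.

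E70 was compared with E60 inside each class that had sums in at least 2 libraries of both stages, which asks whether collagen levels changed over these 10 days. E60_1 and E60_2, which stood apart from the other fetal libraries, were among the E60 libraries, so what set them apart is mixed with stage. edgeR called 0% of 13249 genes in astroglia-like, 0% of 8811 in IP-like, 0% of 12048 in interneuron-like, 0% of 11633 in microglia-like, 0% of 9437 in oligodendroglia-like and 0% of 2896 in erythroid-like cells, and so no member. At an unadjusted p under 0.05 there were 10 of 25 members in astroglia-like cells (14.9% of all genes), 2 of 8 in IP-like (2.63%), 10 of 19 in interneuron-like (27%), 3 of 14 in microglia-like (9.87%), 4 of 10 in oligodendroglia-like (8.84%) and 1 of 2 in erythroid-like cells (14.4%). DESeq2 called COL2A1, COL3A1, COL8A1 and COL28A1 among 675 genes in astroglia-like cells, COL8A1, COL11A1, COL14A1 and COL28A1 among 1567 genes in interneuron-like cells, COL8A1 among 262 genes in microglia-like cells, COL14A1 among 233 genes in erythroid-like cells, and no member in the other classes. With edgeR, 4 members were called in astroglia-like and 5 in interneuron-like cells once E70_3 was left out, and 10 in interneuron-like cells once E60_3 was left out.

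Of the members at an unadjusted p under 0.05, 7 of 10 were higher at E70 in astroglia-like, 9 of 10 in interneuron-like, 2 of 2 in IP-like, 2 of 3 in microglia-like, 4 of 4 in oligodendroglia-like and 1 of 1 in erythroid-like cells. The medians over the members tested were 0.76 to 1.05, against -0.16 to 0.02 over all genes. In astroglia-like cells the largest differences were those of COL2A1 (-4.19 ± 0.97, edgeR adjusted p = 0.219) and COL3A1 (-3.84 ± 1.32, 0.259), both with lower levels at E70 and neither called. COL2A1 stood at 23.5, 16.7 and 4.32 CPM in E60_1, E60_2 and E60_3 and at 0, 0 and 1.05 CPM in E70_1, E70_2 and E70_3, and COL1A2 at 37.7, 42.1 and 61.3 CPM against 7.01, 17.2 and 23.6 CPM (-1.39 ± 0.43, 0.234). The stages did not overlap for these genes, although the 0 values of COL2A1 allow up to 10.5 and 6.47 CPM, whereas COL3A1, at 5.55, 78.5 and 44.0 CPM against 3.50, 10.8 and 0.524 CPM, overlapped.

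COL8A1 was high in 2 of the 3 E70 libraries. It stood at 13.4, 6.25 and 12.2 CPM in the astroglia-like cells of E60_1, E60_2 and E60_3, and at 116, 75.4 and 11.8 CPM in those of E70_1, E70_2 and E70_3. In interneuron-like cells it stood at 8.06, 6.04 and 9.32 CPM at E60 and at 73.5, 96.3 and 18.5 CPM at E70. E70_1 and E70_2 lay far above the E60 libraries in both classes, and E70_3 lay inside their range in astroglia-like cells. The E70 minus E60 difference was 2.53 ± 0.73 (edgeR adjusted p = 0.221) in astroglia-like and 2.89 ± 0.60 (0.111) in interneuron-like cells. Without E70_1 and E70_2 it was 0.12 and 1.15, with E70_3 alone at E70 and assumed to vary like the E60 libraries. Without E60_1 and E60_2, which left E60_3 alone at E60, it was 2.38 and 2.71.

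The same libraries were compared with the others in 7 classes, the astroglia-like, IP-like, excitatory-like, interneuron-like, oligodendroglia-like, microglia-like and erythroid-like cells. COL8A1, COL13A1, COL14A1 and COL28A1 were above every other fetal whole cell library in both E70_1 and E70_2 in 7 of 7 classes, COL4A4, COL15A1 and COL26A1 in 6 and COL11A1 in 5, while COL1A1, COL1A2, COL2A1 and COL3A1 were so in 0. The sums used here held at least 10 cells, and how many of all genes met the same rule was not counted. COL28A1 was near the floor in erythroid-like cells, at 3.09 and 3.72 CPM against 0 to 1.04 CPM. In erythroid-like cells, which carry few transcripts besides globin, COL8A1 stood at 102 and 74.5 CPM in E70_1 and E70_2 and at 0 to 1.08 CPM in the other 5 libraries. COL14A1 stood at 33.9 and 48.4 CPM against 3.11 to 16.7 CPM. These libraries also differed in quality, as 8 mitochondrial genes summed to 7850.3 and 8278 CPM in E70_1 and E70_2, 13259.9 to 18844 CPM in the other fetal whole cell libraries and 602 CPM in the E70 nuclei. The 14 endothelial markers summed to 217 and 200.01 CPM in the excitatory-like cells of E70_1 and E70_2 against 51.7 to 75.8 CPM in the other libraries, to 198 and 186 against 59.97 to 79.2 CPM in interneuron-like cells and to 214 and 172 against 42.7 to 75.9 CPM in astroglia-like cells, while in microglia-like and erythroid-like cells both libraries lay inside the range of the others. Mural and fibroblast markers did set both libraries apart in microglia-like cells. There the 13 mural markers reached 151 CPM (E70_1) and 142 CPM (E70_2), against 24.1 to 79.3 CPM in the remaining fetal libraries. The 16 fibroblast markers reached 250 and 257 CPM, against 157 to 231 CPM. In erythroid-like cells E70_1 lay above the others for both of these lists, and E70_2 did not. The part of these values in the collagen levels was not tested.

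E60_1 shared a sequencing pool with E70_1, and E60_3 with E70_3, by the library numbers of the study. Within the first pool COL8A1 differed between E70 and E60 by 3.11 in astroglia-like and 3.19 in interneuron-like cells, COL11A1 by 2.60 and 2.54, and COL14A1 by 2.12 and 2.59. Within the second pool COL8A1 differed by -0.05 and 0.99, COL11A1 by -0.44 and 0.35, and COL14A1 by -0.13 and 0.34. The differences of these genes were thus large in the first pool in both classes, and smaller or of the other sign in the second.

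**Figure D5:**
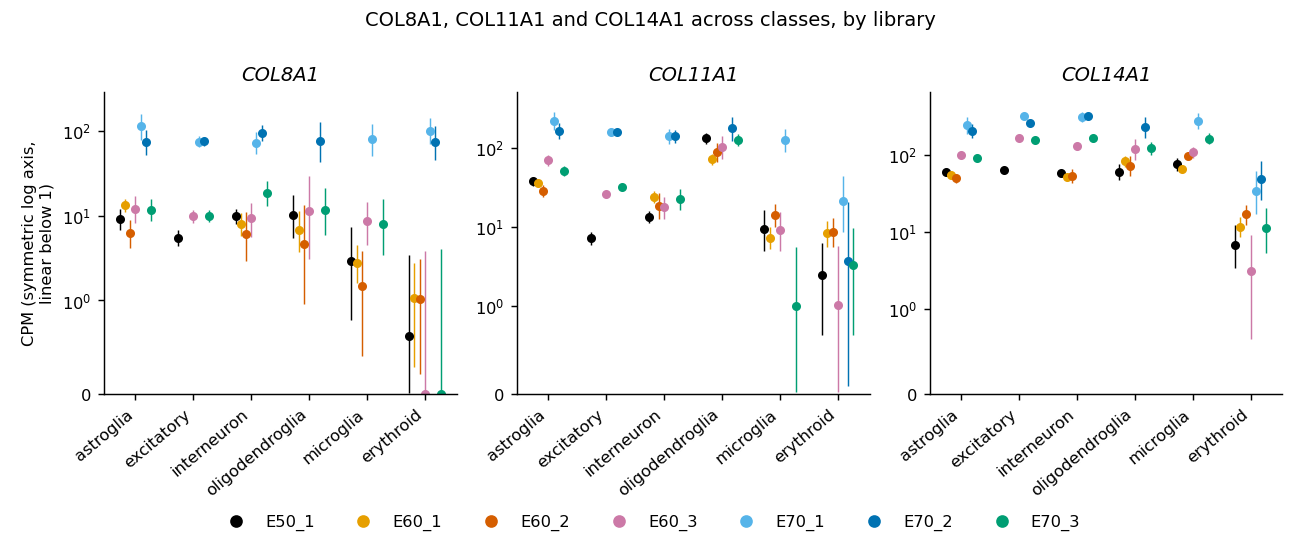
Levels of COL8A1, COL11A1 and COL14A1 in CPM (vertical axis, symmetric log scale, linear below 1) in 6 classes, 1 point per fetal whole cell library with its exact 95% Poisson interval. The blue points of E70_1 and E70_2 lie above the other libraries in every class for COL8A1 and COL14A1, while E70_3 lies below both of them.

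The adult and nuclear libraries had no replicates, so their values stand without a test. The 13 fibroblast-like cells of Adult_1 had COL1A1 at 604 CPM, COL1A2 at 1180.0 CPM, COL3A1 at 279 CPM, COL8A1 at 558 CPM and COL12A1 at 965 CPM. The fibrillar genes of this list were below all 4 fetal fibroblast-like libraries, and COL8A1 and COL12A1 were inside their ranges. Adult_nc held 119 nuclei in the fibroblast-like clusters, but their fibroblast markers summed to 564 CPM, against 2975 to 4271 CPM in the fetal libraries, with 7 of 16 at 0 and LUM among these, and COL1A1 was at 21.3 CPM. No fibroblast value was taken from them.

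In the adult vessels COL18A1 was at 575 CPM in 54 mural-like cells, above the 116 to 319 CPM of the fetal mural-like libraries, and COL8A1 was at 157 CPM against 4.23 to 10.3 CPM. COL4A2 was at 559 CPM in mural-like cells and at 213 CPM in 79 endothelial-like cells, below the fetal range in both. COL14A1 was at 401 CPM in the adult oligodendroglia-like cells and 416 CPM in the adult microglia-like cells of Adult_1, and at 724 and 653 CPM in those of Adult_nc, all above every fetal library of these classes. Nuclei were higher than whole cells for this gene in both classes. COL8A1 reached 253 CPM in the adult interneuron-like cells of Adult_1, against 6.04 to 96.3 CPM in the fetal libraries. In the E70 nuclei COL11A1 was at 419.7 CPM in 30 oligodendroglia-like nuclei and COL25A1 at 524 CPM in interneuron-like nuclei, and in the adult nuclei COL25A1 was at 548 CPM in interneuron-like nuclei. All 3 lay above the fetal whole cell libraries of their class.

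Transcripts of genes that make, crosslink, bind or break down collagen, or that partner it in the basement membrane, were followed by 5 lists. Their counts stand beside 10.5% of all genes higher and 14.5% lower in fibroblast-like than in endothelial-like cells. Of 19 genes for collagen folding and modification in the cell, 8 were higher and 3 lower in fibroblast-like than in endothelial-like cells, among them the prolyl hydroxylase P4HA3 (2.77 ± 0.34) and the chaperone FKBP10 (2.77 ± 0.37), with the galactosyltransferase COLGALT2 lower (-5.05 ± 0.45). Of 14 genes that cut propeptides or crosslink fibrils 8 were higher and 1 lower, led by LOX, lysyl oxidase (5.90 ± 0.44, edgeR adjusted p = 4.42e-16), and PCOLCE, the enhancer of procollagen cleavage (5.73 ± 0.45, 2.52e-15). Of 8 collagenases and inhibitors 4 were higher, with MMP2 by 3.50 ± 0.28. Of 11 collagen receptors 1 was higher, the fibrillar collagen receptor DDR2 (1.11 ± 0.30), and 4 were lower, with the integrins ITGA1 (-2.51 ± 0.40) and ITGA2 (-2.14 ± 0.43). Of 13 partners in the basement membrane 5 were lower and 0 higher, with AGRN, agrin, at -3.17 ± 0.40 and HSPG2, perlecan, at -1.76 ± 0.37.

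In mural-like minus endothelial-like cells, where 4.97% of all genes were higher and 8.37% lower, 3 folding genes were higher and 2 lower, 5 propeptide or crosslinking genes higher and 0 lower, and 2 basement membrane partners higher and 2 lower. Of the receptors 2 were higher and 1 lower, and of the collagenases and inhibitors likewise. ITGA1 was higher in mural-like cells (2.45 ± 0.32), as was PCOLCE (3.55 ± 0.48). Of the 2, ITGA1 was lower and PCOLCE higher in fibroblast-like than in endothelial-like cells.

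In astroglia-like minus excitatory-like cells, where 15.4% of all genes were higher and 15.6% lower, 10 folding genes were higher and 1 lower, 6 propeptide or crosslinking genes higher and 1 lower, 4 receptors and 4 collagenases or inhibitors higher and none lower, and 6 basement membrane partners higher and 1 lower. SPARC, a collagen-binding matrix protein (3.86 ± 0.51), SERPINH1, the collagen chaperone HSP47 (2.68 ± 0.47), and the inhibitor TIMP1 (3.63 ± 0.40) were among the higher genes. In retinal progenitor-like minus astroglia-like cells the 5 lists had 19, 14, 11, 8 and 13 genes tested. Of these genes 6 were higher, against 4.29% of all genes, and 9 lower, against 7.26%. LOXL2, a lysyl oxidase (3.43 ± 0.41), and the type IV collagen receptor ADGRG6 (2.95 ± 0.39) were higher and the type III collagen receptor ADGRG1 was lower (-3.73 ± 0.56).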

How the data were processed

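The authors deposited UMI counts per gene and cell, made with 10x Genomics 3′ chemistry and mapped to pig Sscrofa11.1 with an Ensembl annotation that counted introns as well as exons. The submitters' processing notes name Cell Ranger 2.20 and the build Sscrofa11.1. Counts come from transcript ends and were not scaled to gene length, so ratios and orders between genes describe UMIs, and a gene whose introns hold primed reads can gain UMIs in nuclei.

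Here the counts were clustered with scanpy 1.11.5 on 3000 variable genes, from which 120 collagen and collagen pathway genes were kept out, after correction between libraries by mutual nearest neighbours and at a resolution of 1.6. Clusters (48) were named from marker lists. Those of at least 60 cells that stayed unnamed, or had markers of another class among 10 leading genes, were divided again at resolution 1.0. All resulting clusters were then named again. They are called X-like because no annotation by the authors was used, and those holding 2916 of the 28229 cells stayed unnamed and outside every class. Scrublet called 193 doublets, none of them in E60_1 and E60_2, so doublets were kept and their removal was an alternative. Counts were summed per class and library over at least 20 cells, filtered with filterByExpr and tested with edgeR 4.0.16 (TMM, quasi-likelihood, library as a block, all named classes in 1 fit) in R 4.3.3, with DESeq2 1.42.0 as an alternative. E70 and E60 were compared within a class without the block. Of 7482 Ensembl IDs in the tables, 987 matched a symbol, through which the 9 further collagen genes were found. Intervals of CPM are exact Poisson intervals at 95% and, like all counts of UMIs, cover counting error only. The labels do not say whether libraries of a stage share a brain, and p-values measure the spread between these libraries.

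The members, lists and tests were chosen with earlier results of these data known. Every member was counted. Members named with values were the 12 with the highest mean CPM in any class, in each contrast the 3 called members with the largest log2 fold change in each direction, and the 3 with the highest level in retinal progenitor-like, astroglia-like and excitatory-like cells. Others were named after their values were seen, to complete a chain family or a count.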

Additional observations from a re-analysis of the deposited data

How the results depend on the processing

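Counting each named result in each alternative, 827 outcomes were the same, 110 weaker, 12 stronger, 6 moved and 5 reversed. Same means that direction and call were kept at any size, or, for values within a sequencing pool, a place within the SE. Shrunken differences are thus among the 827. Without E70_1 and E70_2 the E70 minus E60 difference of COL8A1 in astroglia-like cells went from 2.53 to 0.12. That of COL11A1 in interneuron-like cells went from 2.19 to 0.06. Many named calls were lost in at least 1 alternative. Of the members named in the class contrasts, the most calls were lost without the library block (23), without E60_1 and E60_2 together (11), and without E50_1 or E60_2 (9 each). The counts of members higher in fibroblast-like than in endothelial-like cells (18 to 21 with 1 library left out), in fibroblast-like than in mural-like cells (11 to 15) and in retinal progenitor-like than in astroglia-like cells (6 to 8) stayed within 1.5 times of 21, 15 and 7 in every alternative that was run. The cause of the changes below was not tested, apart from the fewer sums that a left-out library or a higher cell minimum leaves.

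Leaving out 1 library gave 3 to 7 members higher in mural-like than in endothelial-like cells (3 without E60_1 or E60_2), 1 to 3 lower in fibroblast-like than in mural-like cells (1 without E50_1 or E60_2), and 4 to 8 higher (4 without E60_3 or E70_3) and 4 to 6 lower in astroglia-like than in excitatory-like cells. Against microglia-like cells it gave 12 to 15 in endothelial-like, 4 to 9 in astroglia-like (5 without E50_1, 4 without E60_3), 3 to 8 in excitatory-like (3 without E70_3) and 4 to 8 in interneuron-like cells (4 without E60_1 or E70_2). Between E70 and E60 it gave 0 to 4 in astroglia-like (4 without E70_3), 0 to 10 in interneuron-like (10 without E60_3, 5 without E70_3), 0 to 2 in microglia-like (2 without E70_3) and 0 to 1 in erythroid-like cells (1 without E60_3 or E70_3). Where 1 sum was left in an arm, as at E70 in microglia-like cells without E70_3, it was assumed to vary like the other groups.

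Without the library block there were 3 members higher in mural-like than in endothelial-like cells, 0 lower in fibroblast-like than in mural-like cells, 3 higher and 2 lower in astroglia-like than in excitatory-like cells, and 5 and 3 above microglia-like cells in astroglia-like and interneuron-like cells. Without E60_1 and E60_2 together, 2 members were higher in mural-like than in endothelial-like cells and 0 lower in fibroblast-like than in mural-like cells, and the fitted differences of COL1A1 and COL1A2 between mural-like and endothelial-like cells reversed, at -0.52 and -0.13, against the levels of the sums that remained. With sums of at least 50 cells, or with each cell thinned to 1000 UMIs, 1 member was lower in fibroblast-like than in mural-like cells, and thinning left 7, 4 and 4 members above microglia-like cells in endothelial-like, excitatory-like and interneuron-like cells. Without batch correction 3 members were lower in astroglia-like than in excitatory-like cells, and 3, 2, 2 and 3 were above microglia-like cells in astroglia-like, IP-like, excitatory-like and interneuron-like cells. At a resolution of 0.8, 4 were higher and 3 lower in astroglia-like than in excitatory-like cells, and 4, 4 and 3 were above microglia-like cells in astroglia-like, excitatory-like and interneuron-like cells. With erythroid-like in place of microglia-like cells the counts were 1, 0, 2 and 2 in astroglia-like, IP-like, excitatory-like and interneuron-like cells.

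DESeq2 called 4, 4, 1 and 1 members between E70 and E60 in astroglia-like, interneuron-like, microglia-like and erythroid-like cells, and edgeR without a low count filter called 2 in erythroid-like cells. Taken within the sequencing pool that E60_3 shared with E70_3, the differences of COL8A1, COL11A1 and COL14A1 in astroglia-like cells reversed, at -0.05, -0.44 and -0.13. The replicate block, with equal library numbers as pairs, called 0 members in every class. The deviations of same-numbered libraries correlated at -0.064, 0.118 and -0.007 in astroglia-like and -0.113, 0.068 and -0.056 in interneuron-like cells. The values were 0.0743, -0.163 and -0.0582 in erythroid-like and 0.18 and 0.18 in IP-like cells. They were -0.123 and 0.0856 in microglia-like and 0.0768 and 0.0444 in oligodendroglia-like cells. Pairs of unlike number spanned -0.0675 to 0.0712 in astroglia-like, -0.0507 to 0.11 in interneuron-like and -0.132 to 0.154 in erythroid-like cells. In these classes same-numbered pairs did not lie above the others as a set, although E60_1 and E70_1, and E60_3 and E70_3, shared sequencing pools. With 2 libraries at a stage the deviations mirror each other. Pairing can therefore not be read from the IP-like, microglia-like and oligodendroglia-like values. Leaving out both E70_1 and E70_2, the erythroid-like background and all alternatives for the counts above microglia-like cells were chosen after seeing the data.

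Depth limits the low members. With 1 to 3 UMIs in a sum, as for COL8A2 in E60_1 and E60_2, the counting interval is wide, and COL10A1 could not be tested.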
